A study of Mus musculus with 6 samples.

Results

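The genes described here encode the machinery that rejoins DNA ends after V(D)J recombination and the proteins that mark and signal such breaks. They are Xrcc6, Xrcc5, Prkdc, Dclre1c, Xrcc4, Lig4, Nhej1, Atm, H2afx and Trp53bp1. The genes were chosen by name for their known roles, with earlier results of these data known. All 10 were found among the 24015 gene symbols in the files, and all 10 carried enough counts to be tested, with 12939 genes tested in all. RNA sequencing gave their levels in mouse DN3 thymocytes, the early T cell precursors that carry much CD25, little CD44 and neither CD4 nor CD8. The 6 libraries formed 3 groups of 2. Tcf1-deficient libraries came from Lck-cre+ Tcf1 fl/fl mice, in which Cre driven by the Lck promoter deletes the floxed gene of Tcf1 (the HMG-box factor encoded by Tcf7) in T-lineage cells. In the p45-deficient libraries (p45-/-), the gene lacks the long Tcf1 isoforms, known as p45, while short isoforms can still be made. Control libraries came from wild-type mice. The sources used here give neither ages nor the number of mice behind each library. The p-values therefore reflect only how far the libraries of a group spread, and that spread may be technical.

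DN3 thymocytes cut and rejoin the T cell receptor beta locus. The RAG recombinase makes the breaks, and classical non-homologous end joining seals them. The Ku heterodimer, made of Ku70 (Xrcc6) and Ku80 (Xrcc5), encircles each end and recruits the kinase DNA-PKcs (Prkdc), which activates the nuclease Artemis (Dclre1c) to open the hairpin-sealed coding ends. DNA ligase IV (Lig4), held by its partner XRCC4 (Xrcc4) and assisted by XLF (Nhej1), then joins the ends. The kinase ATM (Atm) senses the break and phosphorylates the histone variant H2AX (H2afx) around it, and 53BP1 (Trp53bp1) binds the marked chromatin and protects the ends from resection.

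Library totals ran from 19640524 to 28107031 counts. Tcf7, the targeted gene, stood at 979 and 976 CPM (counts scaled to library size, with TMM scaling) in the Tcf1-deficient, 2339 and 2413 CPM in the p45-deficient and 2087 and 1809 CPM in the control libraries. Counts per gene include exons outside the deleted part and do not separate isoforms, so these levels do not measure remaining protein. By edgeR the adjusted p of Tcf7 was 0.0762 in Tcf1-deficient against control cells, short of the threshold of 0.05 used throughout, and 0.0031 in Tcf1-deficient against p45-deficient cells. The DN3 markers Il2ra and Ptcra were present in every library, at 922 to 1990 CPM and 97.2 to 299 CPM. The libraries were not uniform in the markers listed for other cell types. Tcf1-deficient replicate 1 held 936 CPM of the 7 double-positive thymocyte markers in the files, 372 CPM of it Cd4, against 349 to 529 CPM in the other libraries. The 11 myeloid and dendritic cell markers summed to 118 and 25.4 CPM in Tcf1-deficient, 28.9 and 33.8 CPM in p45-deficient and 115 and 55.4 CPM in control replicates 1 and 2. The 18 immediate-early genes summed to 3465 and 4170 CPM in Tcf1-deficient libraries, 751 and 703 CPM in p45-deficient libraries and 937 and 4058 CPM in controls.

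Loss of the long Tcf1 isoforms went with more Xrcc6 RNA and less Trp53bp1 RNA, while the other 8 genes did not pass the test. Xrcc6 rose 1.61-fold in p45-deficient over control cells (95% CI 1.30 to 2.00) and Trp53bp1 fell 1.39-fold (log2 fold change −0.47, 95% CI −0.73 to −0.21). With deletion of Tcf1 by Lck-cre, none of the 10 genes was called against control. Between the mutants, Xrcc6 was 1.72-fold lower in Tcf1-deficient than in p45-deficient cells. Calls were made at an adjusted p below 0.05 by edgeR's quasi-likelihood test over all genes tested. In p45-deficient against control cells that test called 2 of the 10 members, beside 16.0% of all genes tested, so the members' share is close to that background. One member of the 10 was called higher, beside 8.47% of all genes, and 1 lower, beside 7.55%. The members' median log2 fold change was 0.19, beside 0.05 over all genes tested. At an unadjusted p below 0.05 there were 4 of 10 members, beside 33.8% of all genes. The libraries of the p45-deficient and control groups did not overlap for 9 of the 10 members, with 6 higher and 3 lower. Over all genes tested 69.3% did not overlap, 37.9% higher and 31.3% lower. The balance of directions depends on the scaling, since the 2073 genes called split into 1096 higher and 977 lower with TMM and 720 higher and 1282 lower with library totals. Under every scaling tried Xrcc6 was called higher and Trp53bp1 lower.

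**Figure D1:**
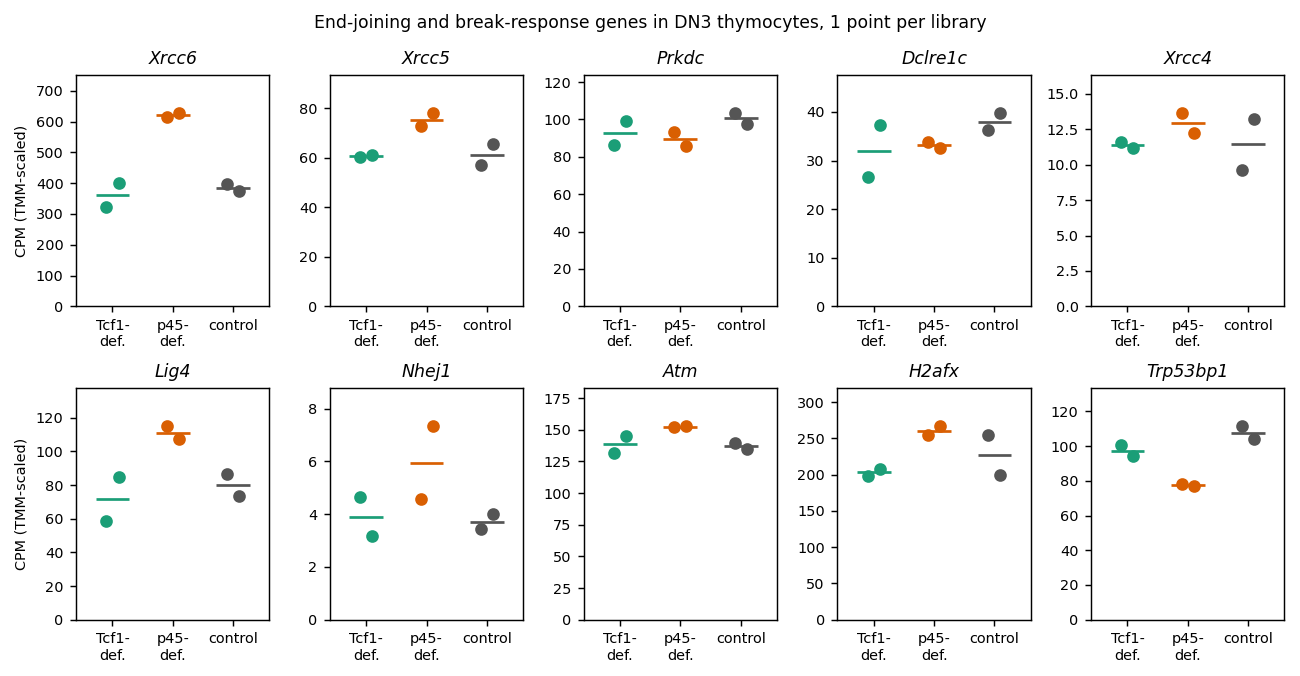
Level of each gene in each library, in CPM on TMM-scaled library sizes, with 1 point per library and a bar at the group mean (n = 2). Each panel has its own axis starting at 0. Both p45-deficient libraries lay above the other 4 for Xrcc6 (615 and 627 CPM) and below them for Trp53bp1 (78.1 and 77.1 CPM).

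The genes of the Ku heterodimer both lay highest in p45-deficient cells, and only Xrcc6 passed the test. Xrcc6 stood at 322 and 399 CPM in Tcf1-deficient, 615 and 627 CPM in p45-deficient and 396 and 374 CPM in control libraries. Both p45-deficient libraries lay far above the other 4, which overlapped one another. The p45-deficient mean of 621 ± 8.80 CPM compared with 385 ± 15.6 CPM in control (mean ± SD, n = 2 each; on the log2 scale 0.69 with an SE of 0.13, edgeR adjusted p = 0.0167). The call was lost when any single p45-deficient or control library was left out, with edgeR adjusted p between 0.0939 and 0.149, while the log2 fold change stayed between 0.62 and 0.73. Xrcc5, which encodes the other Ku subunit, stood at 60.2 and 61.1 CPM in Tcf1-deficient, 72.8 and 78.0 CPM in p45-deficient and 57.1 and 65.6 CPM in control libraries. The p45-deficient libraries were again the highest, by a smaller margin that did not pass (fold 1.23, 95% CI 1.00 to 1.5, adjusted p = 0.142 by edgeR). The ratio of Xrcc6 to Xrcc5, each taken as CPM per kilobase of exon, was 3.05 and 3.73 in Tcf1-deficient, 4.82 and 4.59 in p45-deficient and 3.96 and 3.25 in control libraries. The p45-deficient ratios were the highest of the 6; this difference was not tested.

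Cell-cycle genes moved together with Xrcc6. The summed level of the 30 listed cell-cycle genes was 6003 and 7758 CPM in Tcf1-deficient, 10439 and 11067 CPM in p45-deficient and 7031 and 6393 CPM in control libraries. Of these genes 20 rose and none fell in p45-deficient against control cells. Over all genes tested 8.47% were called higher and 7.55% lower. Some markers of other cell types differed as well. The 8 early progenitor markers summed to 13.3 and 13.4 CPM in p45-deficient against 89.0 and 86.7 CPM in control libraries, with 4 of 8 called lower and 3 of 8 at 0 counts in at least 1 library. The 11 natural killer and innate lymphoid markers summed to 899 and 881 CPM in p45-deficient against 163 and 223 CPM in control libraries. Gzma was the 1 of 10 tested that rose, a share near the 8.47% called higher over all genes tested. Gzma alone gave 806 and 799 CPM of these sums in p45-deficient libraries, against 123 and 136 CPM in control libraries, and the other 10 markers summed to 92.6 and 81.7 CPM in p45-deficient against 40.1 and 86.5 CPM in control libraries, which overlap. The part of these differences in the Xrcc6 and Trp53bp1 results was not tested. In bulk RNA, a different mix of cells and a different amount of RNA per cell cannot be told apart.

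The kinase and nuclease that open the hairpins lay slightly lower in p45-deficient cells, within what the test allows for no change. Prkdc, the gene mutated in scid mice, stood at 86.1 and 99.1 CPM in Tcf1-deficient, 93.2 and 85.6 CPM in p45-deficient and 103 and 97.8 CPM in control libraries. Its fold in p45-deficient over control was 0.889 (95% CI 0.726 to 1.09, adjusted p = 0.379 by edgeR). Dclre1c, encoding Artemis, stood at 26.6 and 37.4 CPM in Tcf1-deficient, 33.8 and 32.6 CPM in p45-deficient and 36.2 and 39.8 CPM in control libraries. Both p45-deficient libraries lay just under both controls (fold 0.874, 95% CI 0.650 to 1.17, adjusted p = 0.494 by edgeR). The lowest Dclre1c value was that of Tcf1-deficient replicate 1.

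Among the ligation genes, Lig4 came nearest to the threshold. It stood at 58.7 and 84.6 CPM in Tcf1-deficient, 115 and 107 CPM in p45-deficient and 86.6 and 73.4 CPM in control libraries. The p45-deficient libraries were the highest of the 6 (fold over control 1.39, 95% CI 1.03 to 1.88, adjusted p = 0.124 by edgeR). The spread between the Tcf1-deficient libraries, 0.53 on the log2 scale, enters the shared estimate of error. Lig4 passed in 3 of 14 alternative settings, each of them without 1 or both Tcf1-deficient libraries. In a fit of the 4 p45-deficient and control libraries alone its edgeR adjusted p was 0.0305. That fit also called more of all genes, 3907 against 2073. With library totals the edgeR adjusted p of Lig4 was 0.24. Leaving out a p45-deficient or control library put its log2 fold change between 0.36 and 0.60, beside 0.47 with all 6. Xrcc4, whose product stabilises ligase IV, stood at 11.6 and 11.2 CPM in Tcf1-deficient, 13.6 and 12.2 CPM in p45-deficient and 9.62 and 13.2 CPM in control libraries. Here the controls spanned nearly the whole range, and the fold of p45-deficient over control was 1.13 (95% CI 0.778 to 1.64). Nhej1, encoding XLF, was the least counted member, with 71 to 153 counts per library. Its levels were 4.66 and 3.16 CPM in Tcf1-deficient, 4.56 and 7.32 CPM in p45-deficient and 3.43 and 4.01 CPM in control libraries. The 1.59-fold difference between p45-deficient and control means had an interval from 0.867 to 2.92, and its p45-deficient replicates differed by 0.67 on the log2 scale.

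Of the break-response genes, Trp53bp1 was the only one called, and in the opposite direction to Xrcc6. It stood at 100.4 and 94.4 CPM in Tcf1-deficient, 78.1 and 77.1 CPM in p45-deficient and 111 and 104 CPM in control libraries. The 3 groups did not overlap, with p45-deficient lowest and control highest. The p45-deficient mean of 77.6 ± 0.690 CPM compared with 108 ± 4.93 CPM in control (mean ± SD, n = 2 each; SE of the log2 fold change 0.11, adjusted p = 0.0312 by edgeR). As for Xrcc6, the call was lost without any single p45-deficient or control library, with edgeR adjusted p between 0.0907 and 0.224 and log2 fold changes between −0.52 and −0.43. Atm stood at 131 and 145 CPM in Tcf1-deficient, 152 and 153 CPM in p45-deficient and 139 and 135 CPM in control libraries. Its fold in p45-deficient over control was 1.11 (95% CI 0.928 to 1.34, adjusted p = 0.373 by edgeR). H2afx stood at 199 and 208 CPM in Tcf1-deficient, 255 and 266 CPM in p45-deficient and 254 and 200 CPM in control libraries. Control replicate 1 was level with the p45-deficient libraries and control replicate 2 with the Tcf1-deficient ones, and the fold of p45-deficient over control was 1.15 (95% CI 0.915 to 1.44, adjusted p = 0.358 by edgeR).

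Other genes of the H2A variant list did pass. H2afz rose to 1175 and 1282 CPM in p45-deficient cells, against 730 and 675 CPM in control (1.75-fold, adjusted p = 0.0104 by edgeR), and H2afv rose 1.48-fold. Both calls were lost without any single p45-deficient or control library. H2afz has many processed copies in the genome, so some of its reads may be misassigned. H2afy2, which encodes a macroH2A, had 0 counts in both p45-deficient libraries, against 1.45 and 1.34 CPM in the controls. H2afx RNA can end in a poly(A) tail or in the stem-loop of replication-dependent histone messages, and the sources used here do not name the RNA selection step, so its counts may cover the forms unequally.

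**Figure D2:**
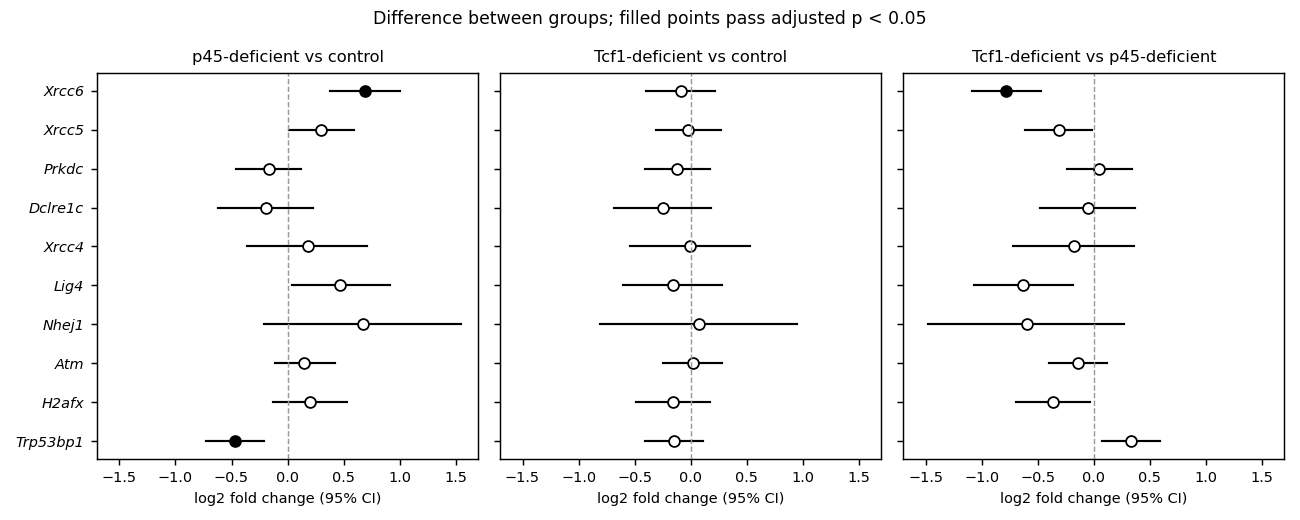
Log2 fold change of each gene in the 3 comparisons, with 95% confidence intervals from edgeR's quasi-likelihood fit (2 libraries per group, 6 in the fit). Filled points passed an adjusted p of 0.05. Xrcc6 is filled on the right of 0 for p45-deficient against control (0.69) and on the left for Tcf1-deficient against p45-deficient (−0.78), and no point is filled for Tcf1-deficient against control.

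Deletion of Tcf1 by Lck-cre left all 10 genes without a call against control. Over all genes tested edgeR called 0, so the background share was 0%, with 1024 genes (7.91%) at an unadjusted p below 0.05. None of the 10 members reached that level, and DESeq2 also called none of them, against 145 of all genes. Their median log2 fold change was −0.11, beside 0.01 over all genes tested. The intervals limit what could have gone unseen. For Atm the fold was 1.01 (95% CI 0.843 to 1.21), and for Xrcc5 it was 0.988 (95% CI 0.807 to 1.21). Xrcc6 had a fold of 0.937 (95% CI 0.757 to 1.16), an interval that leaves out the 1.61-fold rise of p45-deficient cells. For Trp53bp1 the fold was 0.904 (95% CI 0.754 to 1.08). It was the 1 member of 10 whose Tcf1-deficient and control libraries did not overlap, lying lower, beside 34.4% of all genes tested (16.4% higher and 18.0% lower). Nhej1 was the least certain, with a fold of 1.05 (95% CI 0.571 to 1.93).

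The direct comparison of the mutants called 1 of the 10 members, Xrcc6, beside 10.4% of all genes tested (5.05% higher and 5.36% lower). At an unadjusted p below 0.05 there were 5 of 10 members, beside 31.1% of all genes. Libraries did not overlap for 7 of 10 members, 1 higher and 6 lower, beside 61.0% of all genes (27.7% higher and 33.3% lower). Mean Xrcc6 was 361 ± 54.6 CPM in Tcf1-deficient libraries against 621 ± 8.80 CPM in p45-deficient libraries (± SD, n = 2 each), a log2 fold change of −0.78 with an SE of 0.13 and an edgeR adjusted p of 0.0171. The call was kept without either control library and without either Tcf1-deficient library. It was lost without either p45-deficient library (edgeR adjusted p = 0.136 and 0.147) and in a fit of the 4 mutant libraries alone (adjusted p = 0.0625). Lig4 was 1.55-fold lower in Tcf1-deficient than in p45-deficient cells (95% CI of the log2 fold change −1.07 to −0.19) with an edgeR adjusted p of 0.0709. DESeq2 called it (adjusted p = 0.0371), as did edgeR without Tcf1-deficient replicate 2 (log2 fold change −0.92, adjusted p = 0.00497). Without Tcf1-deficient replicate 1 the log2 fold change of Lig4 was −0.34 (edgeR adjusted p = 0.166), so which Tcf1-deficient library is kept moves this value by over 1.5 times. Trp53bp1 was 1.25-fold higher in Tcf1-deficient cells (95% CI 1.05 to 1.5), which edgeR did not call (adjusted p = 0.0984) and DESeq2 did (adjusted p = 0.0422). H2afx and Xrcc5 had folds of 0.780 (95% CI 0.622 to 0.980) and 0.804 (95% CI 0.657 to 0.984) and did not pass after adjustment. The members' median log2 fold change was −0.25, beside −0.01 over all genes tested. This comparison shares its p45-deficient libraries with that of p45-deficient against control, so a gene high in those libraries counts in both.

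The members differed widely in level. Divided by the total exon length of each gene, the control means ran from 164 ± 27.7 CPM per kilobase for H2afx to 2.71 ± 0.608 CPM per kilobase for Xrcc4 (mean ± SD, n = 2). Xrcc6 followed H2afx at 86.0 ± 3.48, and Xrcc5 came next at 24.01 ± 2.34 CPM per kilobase. Lig4 (15.4 ± 1.79) and Atm (13.2 ± 0.318) stood in the middle. Prkdc (7.63 ± 0.299) and Trp53bp1 (7.61 ± 0.348) could not be ordered, since their control libraries overlapped. Dclre1c (4.08 ± 0.267), Nhej1 (3.33 ± 0.364) and Xrcc4 closed the order, and the control libraries of Nhej1 and Xrcc4 overlapped. The first 7 ranks were the same in all 3 groups, and in both mutants Nhej1 stood above Dclre1c on the mean, in Tcf1-deficient cells only with total exon length. With the longest transcript as the length, Trp53bp1 ranked above Prkdc in each group, and Xrcc6 and H2afx drew level in p45-deficient cells at 188 CPM per kilobase each. Within the ligase complex, Xrcc4 stood below Lig4 in each library, with a ratio of 0.137 to 0.244 per kilobase.

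**Figure D3:**
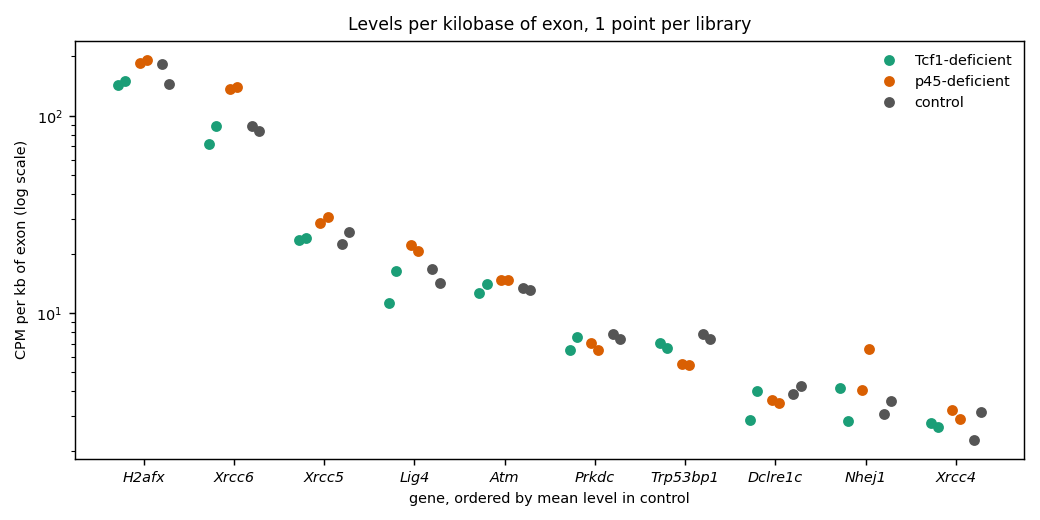
Level of each gene per kilobase of exon in each library, on a log axis, with 1 point per library and genes ordered by their control mean. H2afx and Xrcc6 lie highest in every library, and Dclre1c, Nhej1 and Xrcc4 lowest in all but p45-deficient replicate 2, where Nhej1 (6.55) lies above Prkdc (6.49) and Trp53bp1 (5.45).

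The 2 libraries of a group agreed best in p45-deficient cells. There the median absolute log2 difference between replicates over the 10 members was 0.081, against 0.175 in Tcf1-deficient and 0.166 in control cells. Over all genes tested the same medians were 0.138, 0.296 and 0.202. In Tcf1-deficient cells the members differed in both directions. Lig4, Dclre1c and Xrcc6 were lower in replicate 1 by 0.53, 0.49 and 0.31 on the log2 scale, and Nhej1 was higher there by 0.55. That replicate is the one with more Cd4 and a higher sum of the myeloid and dendritic cell markers. Cd74 gave 67.5 CPM of that sum in replicate 1 and 6.82 CPM in replicate 2, while Lyz2 stood at 7.38 and 8.40 CPM. The natural killer and innate lymphoid markers other than Gzma summed to 216.5 CPM in replicate 1 and 99.4 CPM in replicate 2. Whether these markers reflect other cells, and their part in the differences, was not tested.

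Genes whose log2 CPM followed a called member most closely over the 6 libraries were sought among the 7449 genes averaging 20 CPM or more. For Xrcc6 the closest were Nup37 (Pearson r = 0.9984), a nuclear pore gene, Brip1 (r = 0.9981), a helicase gene of homologous recombination, and Ndufa9 (r = 0.9980), a subunit gene of respiratory complex I. Nup37 stood at 19.2 and 27.5 CPM in Tcf1-deficient, 47.6 and 49.8 CPM in p45-deficient and 26.5 and 23.9 CPM in control libraries. For Trp53bp1 the closest were Nckap5l (r = 0.9945), Actr1b (r = 0.9936), which encodes a dynactin actin-related protein, and Pdzd4 (r = 0.9936). These correlations describe 6 libraries in 3 groups, share library scaling with the member, and mostly restate the offset of the p45-deficient pair.

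The wider repair pathways were read from lists set with earlier results known. In p45-deficient against control cells, of 13 end-processing and accessory end-joining genes 1 rose and 1 fell, or 15.4% of the list, which is near the 16.0% called over all genes tested. Tdp2, a phosphodiesterase that clears topoisomerase II adducts from DNA ends, rose to 66.4 and 67.2 CPM in p45-deficient cells, against 43.1 and 46.7 CPM in control (1.49-fold, adjusted p = 0.0268 by edgeR). Parp3, an ADP-ribosyltransferase that aids end joining, fell 1.88-fold (adjusted p = 0.0398), to 13.8 and 12.9 CPM, against 23.3 and 26.9 CPM in control. Over the list the log2 fold changes had a median of 0.16. Both calls were lost without any single p45-deficient or control library.

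Among the 5 genes of the cutting and end-adding step, the DNA-bending cofactors of RAG rose. Hmgb2 rose to 1628 and 1613 CPM in p45-deficient cells, against 683 and 717 CPM in control (2.31-fold, adjusted p = 0.00192 by edgeR), and Hmgb1 rose 1.81-fold (adjusted p = 0.00975). Hmgb1 has many processed copies in the genome, so some of its reads may be misassigned. In p45-deficient against control cells 2 of the 5 genes were called (40% of the list), beside 16.0% of all genes tested. Fewer of the 5 were called without any single p45-deficient or control library, and more without either Tcf1-deficient library. The count over all genes tested moved in the same directions. Rag1, the catalytic subunit, stood at 458 and 801 CPM in Tcf1-deficient, 1620 and 1539 CPM in p45-deficient and 1255 and 950 CPM in control libraries. Rag1 fell 2.51-fold in Tcf1-deficient against p45-deficient cells (adjusted p = 0.0320 by edgeR), and neither mutant was called against control. Dntt, the template-free polymerase TdT, had a fold of 0.694 in p45-deficient over control cells and was not called (adjusted p = 0.0794).

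Homologous recombination genes, which act on replicated DNA, had the largest share of calls among the repair lists other than the 5-gene recombinase list. Of 20 genes 7 rose and none fell in p45-deficient against control cells (35% of the list, beside 16.0% of all genes), and the median log2 fold change of the list was 0.55, beside 0.05 over all genes tested. Gen1, a Holliday junction resolvase, rose 2.55-fold, to 31.8 and 35.6 CPM in p45-deficient cells, against 13.6 and 12.8 CPM in control (adjusted p = 0.00857 by edgeR). Rpa3 and Rpa2, which encode subunits of the single-strand binding complex RPA, rose 2.06-fold and 1.45-fold. Left-out libraries moved the count of called genes in this list widely, to 0 or 1 without a p45-deficient or control library and to 11 and 12 without Tcf1-deficient replicates 1 and 2. With library totals or upper-quartile scaling it was 4. Of 30 cell-cycle genes, the same test called 20 higher, with a list median of 0.83. Cenpa rose 2.42-fold, Cdk1 2.26-fold, Birc5 2.37-fold and Top2a 1.97-fold. That count was 3 to 5 without a p45-deficient or control library.

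Of 25 break-sensing and 53BP1 pathway genes 3 rose and none fell, so 12% of the list was called, a smaller share than the 16.0% over all genes tested. Rnf168, the ubiquitin ligase whose mark on H2A recruits 53BP1, rose 1.47-fold, to 80.2 and 84.4 CPM in p45-deficient cells, against 59.3 and 52.4 CPM in control (adjusted p = 0.0261 by edgeR). Ube2n, the E2 enzyme of the same ubiquitin pathway, rose 1.73-fold, and Smc1a, a cohesin subunit, 1.34-fold. With library totals in place of TMM none of these was called higher and 1 gene of the list was called lower. None of the list was called when any single p45-deficient or control library was left out. Of 8 alternative end-joining genes 2 rose and none fell, or 25% of the list. Rbbp8, encoding the resection factor CtIP, rose to 69.3 and 68.0 CPM in p45-deficient cells, against 32.7 and 37.2 CPM in control (1.96-fold, adjusted p = 0.0101), and the flap endonuclease gene Fen1 rose 1.51-fold; neither call outlasted the omission of a p45-deficient or control library. Of 11 ATR checkpoint genes 1 rose (9.09% of the list, again a smaller share than over all genes), the replication-stress mediator Clspn, by 1.52-fold (adjusted p = 0.0455), and it was not called with library totals, RLE size factors or upper-quartile scaling.

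**Figure D4:**
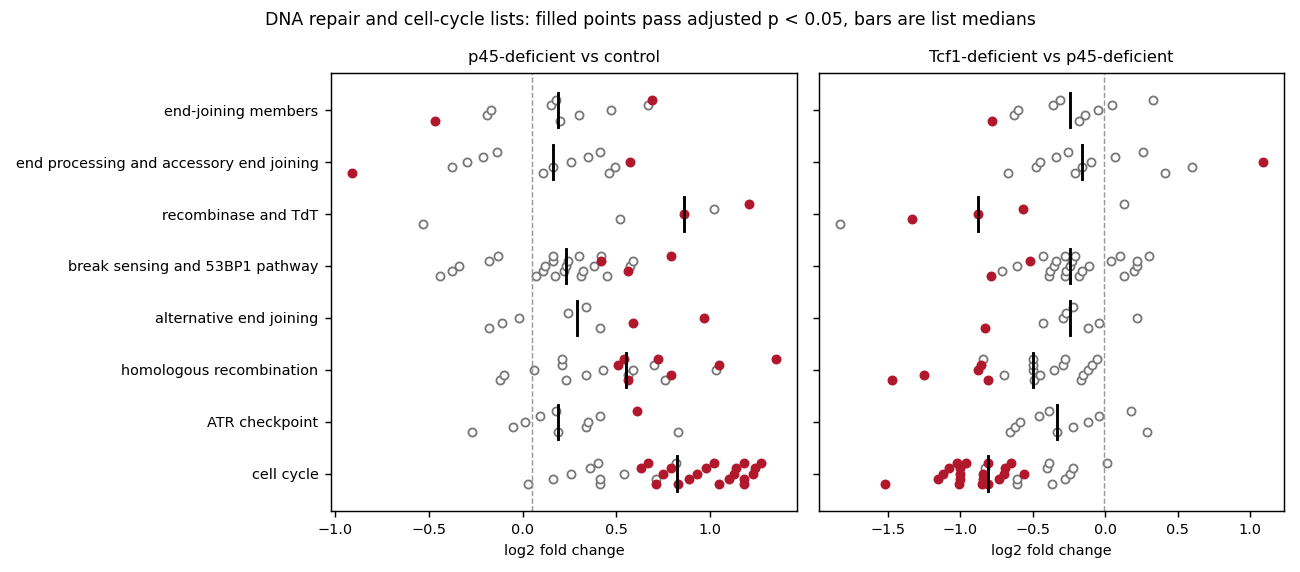
Log2 fold change of each tested gene by list, for p45-deficient against control (left) and Tcf1-deficient against p45-deficient (right), each panel with its own axis. Filled points passed an adjusted p of 0.05, short bars are list medians and the dashed line is the median of all genes tested. On the left the cell-cycle list (median 0.83) and the homologous recombination list (0.55) lie further right than the 10 end-joining members (0.19).

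Between the mutants, most calls in these lists were lower in Tcf1-deficient than in p45-deficient cells, beside 10.4% of all genes tested called, with 5.36% lower and 5.05% higher. Of 20 homologous recombination genes 5 fell and none rose, among them Rpa3 (1.84-fold), Gen1 (2.38-fold) and Brca1 (1.81-fold). Of 30 cell-cycle genes 20 fell and none rose. Of the 5 recombinase genes 3 fell: Hmgb2 (1.84-fold), Rag1 and Hmgb1 (1.48-fold). Rnf168 (1.43-fold) and Ube2n (1.73-fold) were the 2 of 25 break-sensing genes that fell (8% of the list, near or under the share over all genes), and neither was called with library totals, RLE size factors or upper-quartile scaling. Rbbp8 fell 1.77-fold as the 1 of 8 alternative end-joining genes called, and Parp3 rose 2.13-fold as the 1 of 13 end-processing genes; with 12.5% and 7.69% of their lists called, both counts are near the share over all genes. No ATR checkpoint gene of 11 was called by edgeR, with 6 at an unadjusted p below 0.05 and 1 called by DESeq2. Without either p45-deficient library no gene of any of these lists was called. In a fit of the 4 mutant libraries alone the calls were 5 cell-cycle genes, 1 homologous recombination gene and 1 recombinase gene. Without either control library they were 12 cell-cycle, 2 homologous recombination and 1 recombinase gene, with Rbbp8's list keeping 1 call. In Tcf1-deficient against control cells edgeR and DESeq2 called no gene of these lists, with 0 to 2 genes per list at an unadjusted p below 0.05. Without Tcf1-deficient replicate 2 the edgeR calls there were 3 recombinase genes and 1 cell-cycle gene lower and 1 end-processing gene higher.

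Several members lie next to or over other genes in the GENCODE M21 annotation of GRCm38, a later build than the mm9 named for these files. Prkdc and the replication helicase gene Mcm4 start within 1 kb of each other on opposite strands, as do Atm and Npat, Lig4 and Abhd13, and Xrcc4 and Tmem167. Tmem167 rose 1.58-fold in p45-deficient against control cells (adjusted p = 0.0256 by edgeR), while its neighbour Xrcc4 was not called. Mcm4 had a fold of 1.33 (95% CI 1.03 to 1.73) and Prkdc one of 0.889, and neither was called. Exons of Trp53bp1 overlap those of Tubgcp4 on the opposite strand over 15.0% of the exon length of Trp53bp1. Tubgcp4, a gamma-tubulin complex gene, rose to 48.4 and 45.3 CPM in p45-deficient cells, against 32.4 and 30.9 CPM in control (1.48-fold, adjusted p = 0.0285), opposite in direction to Trp53bp1. Exons of Xrcc6 overlap those of Desi1 over 7.7% of their length, and Desi1 had a fold of 1.28 (95% CI 0.918 to 1.79). Exons of Xrcc4 also overlap those of Tmem167 on the opposite strand, over 2.7% of the exon length of Xrcc4. For Dclre1c and Suv39h2 the overlap covers 3.8% of the exon length of Dclre1c. Whether strand was used in the counting is not known here, so how reads from the overlaps were counted is not known either.

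Promoter sequences, 250 bases before to 50 after the transcript start, were taken from RefSeq (GRCm38.p6). Sequences were found for Xrcc4, Xrcc5, Xrcc6, Lig4, Nhej1, Dclre1c, Atm and Trp53bp1. None was found for Prkdc or H2afx, which were not searched. The promoters of both called members are shown with those of Lig4 and Dclre1c. Lig4 lay highest in the same libraries as Xrcc6. Of the members searched, Dclre1c was the only one whose window holds a searched TCF/LEF core. Capitals mark matches, on either strand, to the TCF/LEF cores CTTTGAT and CTTTGAA, the E2F-type cores GCGGGAA and GCGCGAA, and the NF-Y box CCAAT.
Xrcc6 (chr15:82016119-82016418, plus strand): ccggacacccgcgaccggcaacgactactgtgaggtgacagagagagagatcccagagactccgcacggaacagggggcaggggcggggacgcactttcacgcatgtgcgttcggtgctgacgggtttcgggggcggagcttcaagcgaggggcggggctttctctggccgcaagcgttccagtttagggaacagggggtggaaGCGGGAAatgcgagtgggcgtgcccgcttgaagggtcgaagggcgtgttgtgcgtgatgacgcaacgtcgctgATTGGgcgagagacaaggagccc
Trp53bp1 (chr2:121271358-121271657, minus strand): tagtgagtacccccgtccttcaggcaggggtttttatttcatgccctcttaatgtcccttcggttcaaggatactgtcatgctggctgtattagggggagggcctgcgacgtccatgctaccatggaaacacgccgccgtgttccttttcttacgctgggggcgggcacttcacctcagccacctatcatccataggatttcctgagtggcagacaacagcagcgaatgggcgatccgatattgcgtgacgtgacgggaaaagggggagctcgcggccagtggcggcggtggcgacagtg
Lig4 (chr8:9977631-9977930, minus strand): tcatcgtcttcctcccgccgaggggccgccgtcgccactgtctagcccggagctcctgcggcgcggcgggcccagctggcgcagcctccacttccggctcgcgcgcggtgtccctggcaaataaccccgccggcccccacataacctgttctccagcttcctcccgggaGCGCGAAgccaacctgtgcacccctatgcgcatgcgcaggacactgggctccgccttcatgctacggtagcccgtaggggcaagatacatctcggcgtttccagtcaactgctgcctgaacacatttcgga
Dclre1c (chr2:3423881-3424180, plus strand): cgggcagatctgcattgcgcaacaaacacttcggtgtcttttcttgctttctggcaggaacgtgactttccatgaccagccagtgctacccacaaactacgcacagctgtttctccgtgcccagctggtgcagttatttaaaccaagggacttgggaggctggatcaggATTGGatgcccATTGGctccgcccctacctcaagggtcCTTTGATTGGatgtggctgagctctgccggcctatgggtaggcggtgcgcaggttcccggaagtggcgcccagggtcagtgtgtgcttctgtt
In the Xrcc6 window GCGGGAA stood at position −46 and a reverse CCAAT at position 27, counted with the first transcribed base as 0. GCGGGAA was found in 4.6% of all 32851 promoters of this length, and also in those of Xrcc4 and Atm. The first Lig4 promoter held GCGCGAA at position −81, a core found in 1.59% of all promoters. A second Lig4 promoter, not shown, held no match to any of the searched motifs. In the Dclre1c window CTTTGAT, found in 3.73% of all promoters, stood at position −43 and overlapped a reverse CCAAT. The other TCF/LEF core, present in 5.14% of all promoters, was in none of the shown windows, and the NF-Y box was present in 37.4% of all promoters. The Trp53bp1 window held no match to any of the searched motifs. GC content was 64.3% in the Xrcc6, 66.3% in the first Lig4, 57.3% in the Trp53bp1 and 56.3% in the Dclre1c window, beside a median of 52.7% over all promoters. These matches describe letters only; no binding was measured here.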

How the data were processed

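The authors deposited unnormalised read counts, as whole numbers for each gene symbol, with 1 file per library. TopHat2, featureCounts 1.5.0-p3, DESeq2 3.4 and the build mm9 appear in the submitters' processing notes, with no role or order. The annotation and strand use were not given in the sources used here.

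Counts were filtered with filterByExpr and tested with edgeR 4.0.16 in R 4.3.3. The fit used TMM scaling, 1 mean per group over all 6 libraries, robust quasi-likelihood dispersions and a two-sided F test, with Benjamini-Hochberg adjustment over the 12939 genes tested. The fit had 3 residual degrees of freedom. SEs and 95% intervals come from the F statistic. An exact permutation test of 2 against 2 cannot go below p = 0.333, so none was used. Exon lengths are from GENCODE M21. Libraries of a group differed beyond counting noise (chi-square per degree of freedom 10.1 to 77.1), and each counted as a replicate.

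The members and gene lists were chosen with earlier results of these data known. In the lists, 3 symbols that the annotation could not pair with the intended gene or that repeated one were dropped, and 1 was replaced by its older symbol, after the files were read. Named genes are the 10 members, Tcf7, up to 4 called members of each pathway list by smallest p, and the 3 genes most like each called member. One gene that this rule names is not reported here. H2afy2, Rag1, Dntt, Il2ra, Ptcra, Cd4, Gzma and neighbouring genes were named for their role, marker list or position after their values were seen. Alternatives were library totals, RLE and upper-quartile scaling, no filter, DESeq2 1.42.0, non-robust dispersions, the compared groups alone, a replicate block and each library left out with the genes tested held fixed.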

Additional observations from a re-analysis of the deposited data

Results flagged for a closer look

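Xrcc6 differed between the mutants. Its log2 fold change in Tcf1-deficient against p45-deficient cells was −0.78 (SE 0.13, adjusted p = 0.0171 by edgeR), where the fold against control was 0.937 in Tcf1-deficient and 1.61 in p45-deficient cells. Both effects are measured from the same control libraries, which cancel in the direct comparison. Both Tcf1-deficient libraries lay below both p45-deficient libraries. No group was searched for outlying samples, since each holds 2 libraries.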

How the results depend on the processing

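With 2 libraries per group and 3 residual degrees of freedom, the calls rest on few libraries. Leaving out a library left its group with 1, which is assumed to vary like the others. For p45-deficient against control, 2 members were called, and 0 to 3 when a library was left out; over all genes 2073 were called, with 254 to 3920 when a library was left out and 3907 with only these groups. For Tcf1-deficient against p45-deficient, 1 member was called, with 3 by DESeq2, 0 with only these groups and 0 to 2 when a library was left out. Over all genes 1348 were called there (654 higher and 694 lower, against 745 and 483 with library totals), with 2440 by DESeq2, 488 with only these groups and 99 to 3385 when a library was left out. For Tcf1-deficient against control no gene was called, with 33 without the filter, 145 by DESeq2 and 0 to 847 when a library was left out, and no member was called under any of these settings. Causes of these changes were not tested. Over all genes in p45-deficient against control, the median log2 fold change was −0.06 with library totals and 0.05 with TMM.

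The replicate numbers did not pair the samples (correlation of deviations −0.0141, −0.0504 and −0.0286 between groups), so the replicate block was only an alternative. With the block, 1 member was called in p45-deficient against control, as Trp53bp1 had an edgeR adjusted p of 0.0526, and 1613 genes were called over all. The members called in the other comparisons numbered 0 for Tcf1-deficient against control and 1 for Tcf1-deficient against p45-deficient.

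Log2 fold changes near 0 changed sign under some settings, none of them called. In Tcf1-deficient against control, Xrcc4 stood at 2e-04 with only these groups and 0.0013 with the block, and Atm at −0.033 with library totals and −0.0213 with upper-quartile scaling. When a library was left out, the ranges there were −0.2163 to 0.2447 for Xrcc4, −0.1132 to 0.0862 for Xrcc5, −0.2565 to 0.0541 for Xrcc6, −0.4466 to 0.0806 for Lig4, −0.2348 to 0.3223 for Nhej1, −0.0592 to 0.0882 for Atm and −0.3208 to 0.0253 for H2afx. In Tcf1-deficient against p45-deficient they were −0.3207 to 0.2245 for Dclre1c, which stood at 0.0046 with library totals, and −0.0547 to 0.203 for Prkdc. In p45-deficient against control the range was −0.0351 to 0.4259 for Xrcc4.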
